A study of Homo sapiens with 6 samples.

Results

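The genes described here are 37 components of the vesicle coats that carry proteins between the endoplasmic reticulum and the Golgi: the COPI coat and its ARF GTPases, the COPII coat and its SAR1 GTPases, and the cargo receptors and membrane proteins that these vesicles carry. They were chosen by gene symbol and not by their values, though with earlier results of these data known. They take up 369 of 153848 transcript rows and 37 of 31768 genes in the count table. Counts came from HMC3, an immortalized human microglial cell line labelled as microglia, in 3 independent cultures irradiated with 15 Gy of X-rays and in 3 independent control cultures at 0 Gy, all collected after 24 h. Poly(A) RNA was read as cDNA in long nanopore reads after PCR, and these are the only groups. The comparison asks which vesicle coat genes and isoforms differ in irradiated cells.

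COPII vesicles leave the endoplasmic reticulum. SAR1, loaded with GTP, recruits the inner coat of SEC23 and SEC24, which picks cargo, and then the outer coat of SEC13 and SEC31, while SEC16A organizes the exit sites. COPI vesicles bring escaped residents and receptors back and move material within the Golgi. An ARF GTPase, switched on by the exchange factor GBF1 and off by ARFGAP proteins, recruits coatomer, a complex of alpha, beta, beta-prime, gamma, delta, epsilon and zeta subunits. KDEL receptors return chaperones, and TMED (p24) proteins and LMAN1 serve as cargo receptors or coat-binding membrane proteins. Microglia use this route to make cytokines and surface receptors.

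The libraries held 6292049 to 6909420 counts in irradiated and 4870897 to 9082409 counts in control cultures, of which the 37 genes took 0.268% to 0.296% and 0.199% to 0.224%. TMM factors, which set the scale of every level below, were 1.09 to 1.24 in irradiated and 0.793 to 0.928 in control libraries, and scaling by library totals alone would raise log2 fold changes by 0.448 at their median over all genes. The irradiation label was checked on CDKN1A and MDM2, p53 targets whose log2 fold changes were 1.77 ± 0.12 and 1.64 ± 0.18 (SE). Of 12 microglia and myeloid markers 5 had no count in any library (ITGAM, CX3CR1, P2RY12, TMEM119 and TYROBP), and the list summed to 33.0 to 37.4 CPM (counts scaled to a common library size) in irradiated and 24.4 to 37.2 CPM in control libraries. Of 10 fibroblast and pericyte markers 8 were counted and COL3A1 and LUM were at 0, with sums of 7177 to 7810 CPM in irradiated and 5640 to 7145 CPM in control libraries, and the part of this difference in the results was not tested. Control culture 3 often lay nearest to the irradiated cultures in the values below.

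After the filters on low counts 35 of the 37 genes, with 264 transcripts, were tested among 11118 genes. In irradiated cells 9 of the 35 rose, which is 25.7% of them beside 11.6% of all genes tested. COPZ2, SEC16A, ARFGAP1, ARF6, KDELR2, COPA, SEC23A, GBF1 and SEC31A made up this group. Another 4 fell, SEC13, TMED9, COPZ1 and TMED10, which is 11.4% beside 14.1% of all genes. The median log2 fold change was 0.08 in the members and also 0.08 over all genes, and genes of the same coat were called in opposite directions. A call here means an adjusted p under 0.05 in edgeR's quasi-likelihood test. With a further limit, a change of over 1 on the log2 scale, COPZ2 was the 1 member called higher and 0 were called lower, beside 4% and 1.7% of all genes. Irradiated and control values did not overlap in 21 of the 35 members, 13 of them the called genes, beside 42.7% of all genes. Of the 22 members not called, 11 had a log2 fold change below 0, and library totals alone put all 11 above 0. The count of 9 dropped to 3 without irradiated 3 and to 4 without irradiated 1 or control 1. Over all genes the count called higher dropped to 716, 694 and 931 in these fits, against 1292 with all 6 libraries. As shares, the members went from 25.7% to 8.57% without irradiated 3 and to 11.4% without irradiated 1 or control 1. All genes went from 11.6% to 6.44%, 6.24% and 8.37% without irradiated 3, irradiated 1 and control 1.

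**Figure D1:**
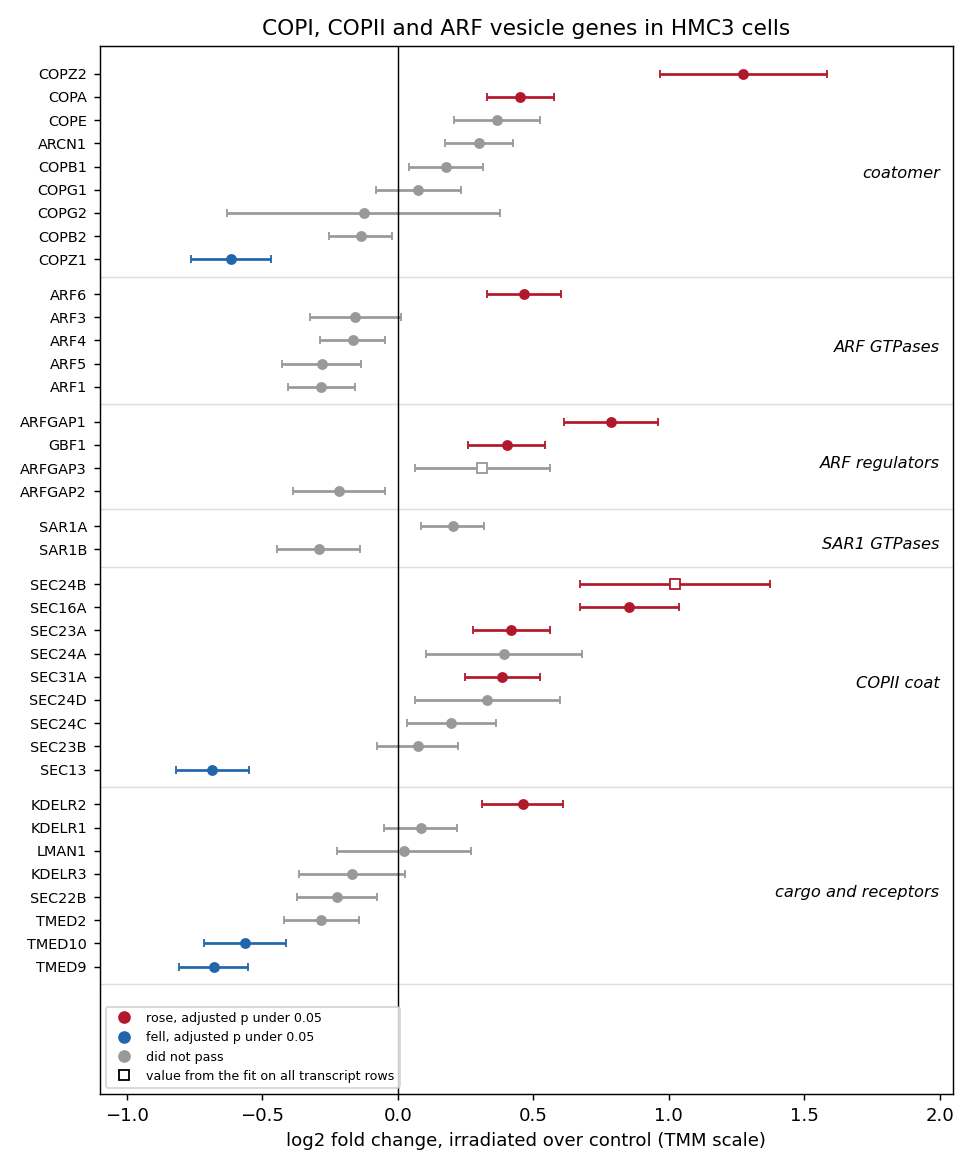
Log2 fold change of each vesicle gene, irradiated over control, by role; the bars are ± 1 SE of the edgeR fit on 3 irradiated and 3 control cultures. Members of most roles lie on both sides of 0, with COPZ2 at 1.28 the highest and SEC13 at -0.68 the lowest; the open squares are SEC24B and ARFGAP3, whose values come from a fit on all transcript rows.

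**Figure D2:**
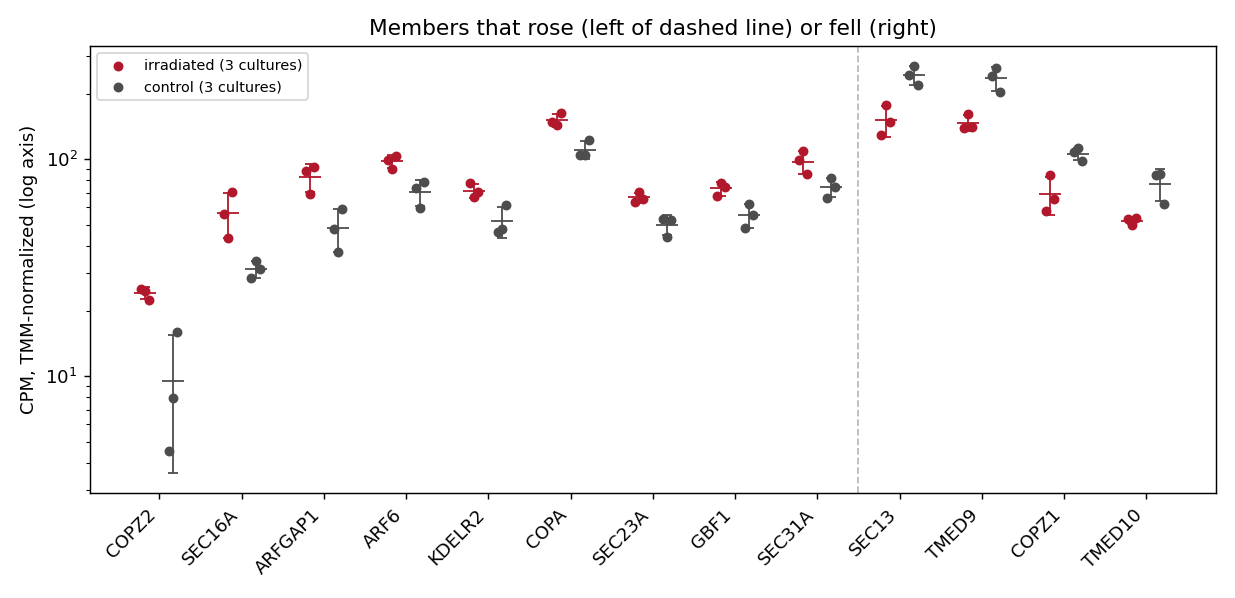
TMM-normalized CPM of the 13 called genes on a log axis, with 1 point per culture, irradiated left of control, and the mean ± SD of 3 cultures as bars. The irradiated points lie above all control points in the 9 genes left of the dashed line and below them in the 4 on its right; control culture 3 of COPZ2, at 16.1 CPM, lies closest to its irradiated cultures.

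Within coatomer the zeta subunits COPZ2 and COPZ1, which occupy the same place in alternative complexes, changed in opposite directions. COPZ2 (ENSG00000005243, chr17:48026167-48038030, minus strand) had 25.3, 24.7 and 22.4 CPM in irradiated cultures, against 4.52, 7.96 and 16.1 CPM in controls. The 3 irradiated cultures were close together, and the controls spread more than 3-fold with no overlap. Its log2 fold change was 1.28 ± 0.31 (SE, adjusted p = 0.00727), and 1.87 without control 3. COPZ1 (ENSG00000111481, chr12:54301202-54351849, plus strand) had 57.7, 84.2 and 65.6 CPM in irradiated cultures, against 108, 112 and 98.1 CPM in controls. All 3 irradiated values lay below all 3 controls (log2 fold change -0.62 ± 0.15, adjusted p = 0.00703). Within each library COPZ1 therefore took 69.5%, 77.3% and 74.6% of the zeta counts in irradiated cultures, against 96.0%, 93.4% and 85.9% in controls, a ratio that no library scaling can change.

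Among the other coatomer subunits only COPA passed. This gene encodes the alpha subunit, which reads the retrieval signal on cargo tails. It had 148, 143 and 163 CPM in irradiated cultures, against 104, 104 and 122 CPM in controls. These groups did not overlap, and the log2 fold change was 0.45 ± 0.12 (adjusted p = 0.0138). The call was lost without irradiated 3 (adjusted p = 0.0829), without control 1 (0.0682) and with an offset for the dependence of counts on transcript length in each library, the length offset (0.249). ARCN1, the delta subunit, and COPE, the epsilon subunit, had log2 fold changes of 0.30 ± 0.13 and 0.37 ± 0.16 that did not pass (adjusted p = 0.0882 and 0.102). With the length offset COPE passed, at 0.70 (adjusted p = 0.00682). COPB1 (beta, 0.18), COPG1 (gamma-1, 0.08) and COPB2 (beta-prime, -0.14) did not pass either. COPG2, the second gamma subunit, was near the limit of detection at 1.34 to 3.44 CPM in irradiated and 2.14 to 3.01 CPM in control cultures, and its log2 fold change of -0.13 ± 0.50 is too wide to place.

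Of the ARF GTPases only ARF6, which works at the plasma membrane and endosomes, passed in its gene total. Whether it differed from the Golgi forms was not shown, since the exact test of its share in the ARF group gives 0.1 at the least. ARF6 had 99.5, 90.2 and 103 CPM in irradiated cultures, against 73.8, 59.8 and 78.6 CPM in controls. The groups did not overlap and ARF6 rose (log2 fold change 0.47 ± 0.14, adjusted p = 0.0213). Its call was lost without irradiated 1 (adjusted p = 0.0700), irradiated 3 (0.0959) or control 2 (0.0893), and with the length offset (0.196). ARF1, the main Golgi ARF, had 134, 128 and 138 CPM in irradiated and 185, 157 and 144 CPM in control cultures, without overlap, yet its log2 fold change of -0.28 ± 0.12 did not pass (adjusted p = 0.105). ARF5 (-0.28), ARF4 (-0.17) and ARF3 (-0.16) did not pass.

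ARF4, a Golgi ARF (ENSG00000168374, chr3:57571363-57598220, minus strand), was not called in its gene total but differed in its isoforms. Transcripts without its exon 2 held a larger share of its counts in irradiated cells. The shares rest on the study's assignment of reads to transcripts, and whether single reads crossed exon 2 was not tested. The exon (chr3:57584384-57584464, GENCODE 29 on GRCh38) is coding and has 81 bases, so that skipping removes 27 codons without shifting the frame. It holds the whole P-loop, codons 24 to 31 of 180, the motif by which small GTPases bind the phosphates of GTP. The exon is printed with 30 coding bases of each neighbouring exon, the exon in capitals, above the 60 bases that the skipping transcript reads across the same place, because these show what the counted transcripts differ by.
ARF4 exon 2 included (ENST00000303436): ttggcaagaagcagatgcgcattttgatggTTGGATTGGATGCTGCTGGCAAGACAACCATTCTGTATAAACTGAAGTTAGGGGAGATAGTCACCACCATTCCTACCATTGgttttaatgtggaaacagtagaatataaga
ARF4 exon 2 skipped (ENST00000496292): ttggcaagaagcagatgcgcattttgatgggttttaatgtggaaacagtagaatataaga
Both sequences run 5′ to 3′ on the coding strand.

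The exon-2-skipping transcript ENST00000496292, annotated as protein-coding, had 286, 223 and 276 counts in irradiated cultures, against 70, 100 and 175 in controls. Its isoform fraction, the share of the gene's counts, was 26.6%, 21.4% and 23.5% in irradiated cultures, against 10.03%, 8.4% and 14.6% in controls. The groups were well apart, by 12.8 percentage points on average (dIF, the difference of isoform fractions), with an adjusted p of 9.11e-06 in edgeR's diffSpliceDGE, and between 1.07e-08 and 0.00178 when each library was left out in turn. A second skipping transcript, ENST00000489843, which lacks exons 2 and 3, moved the same way at 8.0%, 7.1% and 7.8%, against 2.9%, 3.0% and 4.2% (adjusted p = 0.000239). Together, the transcripts without exon 2 held 31.4% ± 3.05 of ARF4 counts in irradiated and 14.4% ± 3.92 in control cultures (SD, n = 3 each), a difference of 17.1 points. The two-sided exact permutation p was 0.1, the smallest that 3 against 3 cultures allow. Counts divided by transcript length gave 33.6% in irradiated and 15.5% in control cultures. The full-length ENST00000303436 held 51.1% to 54.0% in irradiated and 59.5% to 63.9% in control cultures, which did not pass (adjusted p = 0.608). ENST00000486310, which includes exon 2 and is annotated for nonsense-mediated decay, held 12.9%, 15.9% and 15.8% in irradiated cultures, against 21.3%, 22.8% and 20.4% in controls, and did not pass either (adjusted p = 0.0647). ARF4-AS1 overlaps ARF4 exons on the opposite strand, and whether the counting used strand is not stated in the sources used here.

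**Figure D3:**
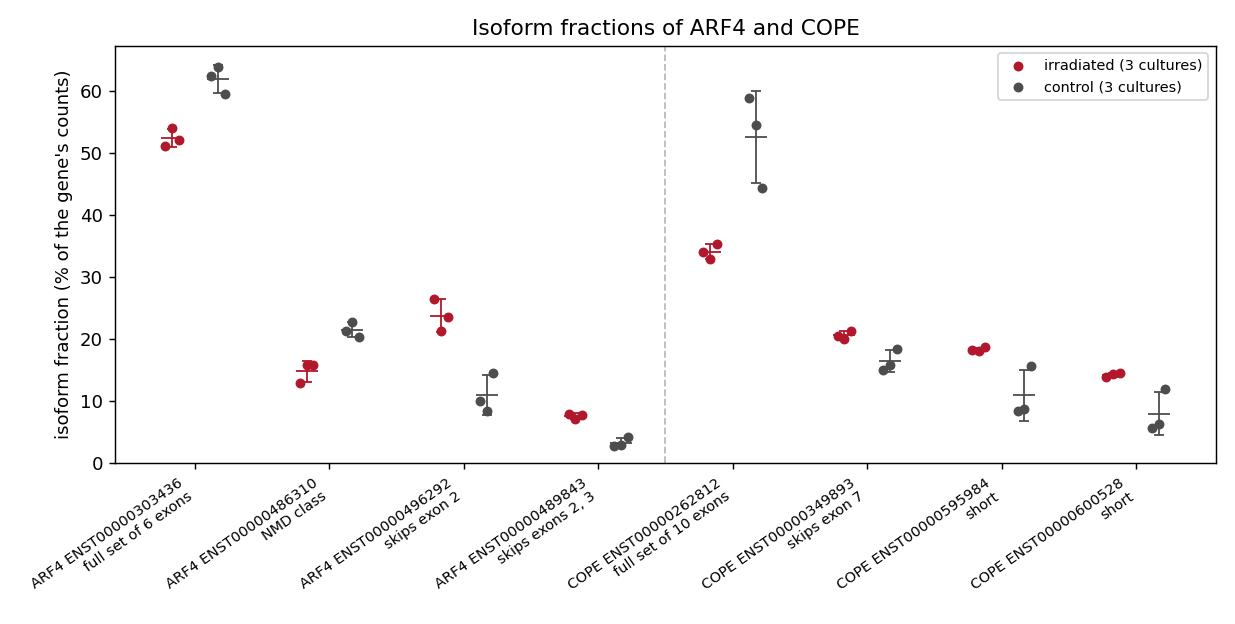
Isoform fraction, in percent of the gene's counts, for 4 transcripts each of ARF4 and COPE, with 1 point per culture, irradiated left of control, and the mean ± SD of 3 cultures. In both ARF4 transcripts that lack exon 2 the 3 irradiated points lie above the 3 control points, and in the full-length COPE transcript they lie below them.

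The ARF regulators changed in the same direction where they changed. ARFGAP1, which stimulates GTP hydrolysis on ARF1 and senses curved membrane (ENSG00000101199, chr20:63272785-63289793, plus strand), had 87.9, 68.8 and 92.3 CPM in irradiated cultures, against 47.9, 37.3 and 58.7 CPM in controls. It rose, with no overlap, at a log2 fold change of 0.79 ± 0.17 (adjusted p = 0.0041). GBF1, the Golgi exchange factor that loads ARFs with GTP, had 67.4, 77.8 and 74.6 CPM in irradiated cultures, against 48.2, 62.0 and 55.5 CPM in controls. Its rise of 0.40 ± 0.14 lay just inside the threshold (adjusted p = 0.0475). Leaving out any library but control 2 ended this call (adjusted p = 0.0683 to 0.195), as did the length offset (0.722) and DESeq2 (0.0812). ARFGAP2, the coatomer-dependent relative of ARFGAP1, had a log2 fold change of -0.22 ± 0.17 and did not pass. ARFGAP3 was removed by the filters. In a fit on all transcript rows it had 8.09, 9.03 and 10.4 CPM in irradiated and 7.79, 8.37 and 6.18 CPM in control cultures and did not pass (adjusted p = 0.372).

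Neither SAR1 gene passed. SAR1A had 156, 147 and 171 CPM in irradiated cultures, against 140.0, 134 and 138 CPM in controls (log2 fold change 0.20 ± 0.12). SAR1B, the form whose loss in people causes chylomicron retention disease, had 41.5, 42.2 and 35.5 CPM in irradiated cultures, against 50.4, 51.9 and 43.7 CPM in controls (-0.29 ± 0.15). Each pair of groups was free of overlap, SAR1A higher and SAR1B lower, though library totals alone put SAR1B at 0.17. Among SAR1A isoforms the 3227-base ENST00000373238 held 26.8%, 23.8% and 24.9% of counts in irradiated and 15.9%, 14.2% and 19.8% in control cultures, with an adjusted p of 0.0301 in diffSpliceDGE, but its gain of 8.5 points was under the limit of 10 points for a switch.

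Of the 8 tested COPII coat genes 3 rose and 1 fell, which is 37.5% and 12.5% beside 11.6% and 14.1% of all genes. SEC16A, the scaffold of exit sites (ENSG00000148396, chr9:136440096-136483759, minus strand), had 56.1, 43.4 and 70.3 CPM in irradiated cultures, against 28.3, 34.0 and 31.3 CPM in controls. The irradiated cultures were higher and more spread than the controls, and the log2 fold change was 0.86 ± 0.18 (adjusted p = 0.00332). SEC13 (ENSG00000157020, chr3:10293131-10321178, minus strand), an outer coat subunit that also sits in the nuclear pore, went the other way with 129, 178 and 148 CPM in irradiated cultures, against 244, 268 and 219 CPM in controls. It fell without overlap at -0.68 ± 0.13 (adjusted p = 0.00223). Its outer coat partner SEC31A had 98.7, 109 and 85.1 CPM in irradiated cultures, against 66.5, 81.8 and 74.6 CPM in controls, and rose by 0.39 ± 0.14 (adjusted p = 0.0495).

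SEC23A, the GTPase-activating inner coat subunit, had 63.7, 70.6 and 65.7 CPM in irradiated cultures, against 53.2, 43.9 and 52.5 CPM in controls, and rose by 0.42 ± 0.14 (adjusted p = 0.0394). The SEC31A and SEC23A calls were fragile. That of SEC31A ended without any library but control 2 (adjusted p = 0.0540 to 0.195) and that of SEC23A without any but control 3 (0.0628 to 0.128), and the length offset and DESeq2 ended both (0.496 and 0.0848 for SEC31A, 0.359 and 0.0529 for SEC23A). SEC23B had a log2 fold change of 0.07 ± 0.15. Of the SEC24 cargo adaptors SEC24A (0.39), SEC24C (0.20) and SEC24D (0.33) did not pass. SEC24B, a single-transcript gene in the table and so removed by the filter on isoform number, had 6.29, 6.31 and 6.38 CPM in irradiated cultures, against 1.70, 2.54 and 4.63 CPM in controls in the fit on all transcript rows. There its log2 fold change was 1.02 ± 0.35 (adjusted p = 0.0463), from 7 to 52 counts per library.

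Cargo receptors and membrane proteins of these vesicles changed in both directions. TMED9 (ENSG00000184840, chr5:177592158-177596124, plus strand), a p24 protein, had 139, 162 and 141 CPM in irradiated cultures, against 243, 262 and 203 CPM in controls. It fell by 0.68 ± 0.13 on the log2 scale (adjusted p = 0.0017). TMED10, its p24 partner, had 53.0, 49.8 and 53.3 CPM in irradiated cultures, against 84.3, 85.1 and 62.2 CPM in controls, and fell by 0.56 ± 0.15 (adjusted p = 0.0125), which did not pass without control 1 (0.0508) or control 2 (0.0631). The third p24 member, TMED2, lay below its controls in every culture but did not pass (-0.28 ± 0.14, adjusted p = 0.141). Scaling by library totals alone ended all 4 of these falls (SEC13 and COPZ1 included), with log2 fold changes of -0.23 for SEC13, -0.22 for TMED9, -0.17 for COPZ1 and -0.10 for TMED10.

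KDELR2, a KDEL receptor, had 77.6, 67.0 and 70.3 CPM in irradiated cultures, against 46.2, 47.4 and 61.8 CPM in controls. It rose without overlap at 0.46 ± 0.15 (adjusted p = 0.0338). The call was lost without irradiated 1 (0.131), irradiated 3 (0.0869), control 1 (0.124) or control 2 (0.104), and with the length offset (0.0767). KDELR1 (0.09) and KDELR3 (-0.17) overlapped between groups and did not pass, nor did the cargo receptor LMAN1 (0.02) or the SNARE SEC22B (-0.22 ± 0.15). DAGLB shares exon bases with KDELR2 on the same strand.

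Of the 13 calls 6 held under all leave-one-out fits, the length offset, RLE factors and DESeq2: COPZ2, SEC16A and ARFGAP1, which rose, and SEC13, TMED9 and COPZ1, which fell. Library totals alone are not among these settings, and they ended the calls of SEC13, TMED9 and COPZ1 (edgeR adjusted p = 0.0715, 0.0633 and 0.297). Transcript length moved with the fold changes. Spearman's rho of log2 fold change with count-weighted transcript length was 0.34 across the 35 members and 0.37 across 10668 genes, given as a description since genes of 1 set of libraries are not independent. The 9 that rose had lengths of 662 to 6403 bases and the 4 that fell of 1470 to 3728 bases. COPZ2 was the exception on the short side, at 662 bases, and TMED10 on the long side, at 3728 bases. Lengths rest on the transcripts that GENCODE 29 holds, which are 1 of 28 in GBF1, 13 of 28 in COPA, 1 of 3 in ARF6, 8 of 12 in SEC16A, 9 of 14 in COPB2 and every kept transcript of the other members. With the length offset 4 members rose (COPZ2, COPE, ARFGAP1 and SEC16A) and 6 fell (SEC13, TMED9, COPZ1, TMED10, SAR1B and SEC22B). These are 11.4% and 17.1% of the members, beside 8.71% and 11.7% of all genes in the same fit. Why fold changes moved with length was not tested.

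**Figure D4:**
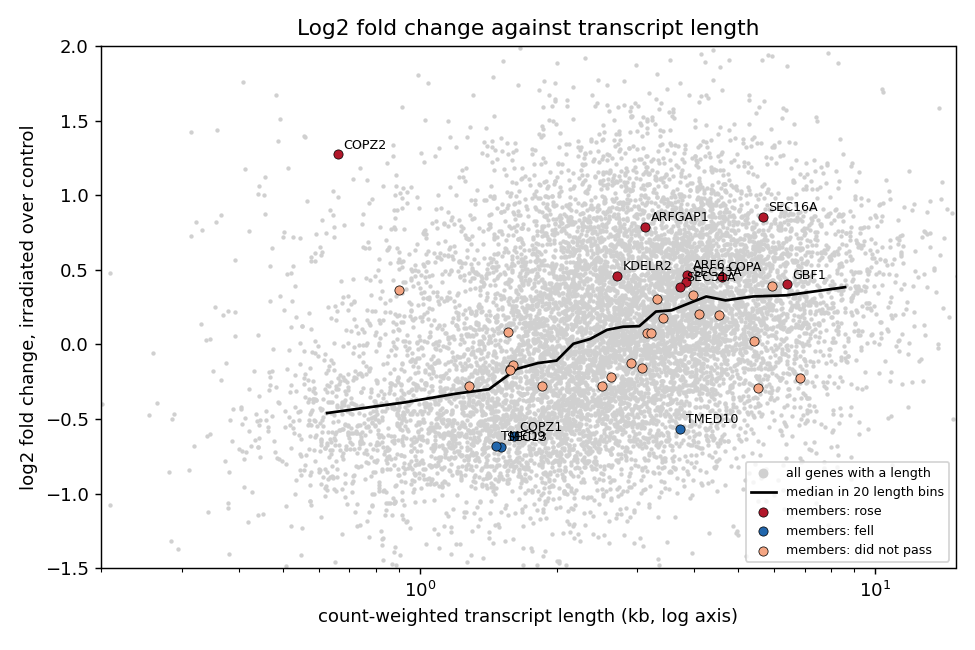
Log2 fold change, irradiated over control, against count-weighted transcript length in kb on a log axis, for all genes with a length (grey), their median in 20 length bins (line) and the 35 tested members (coloured). The grey median climbs with length; COPZ2 lies well above it at 662 bases and TMED10 well below it at 3728 bases.

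Shares within paralog groups need no scaling between libraries and were compared next. Of 22 shares in 9 groups 12 did not overlap between irradiated and control cultures. For levels of single genes on the TMM scale, a different measure, 42.7% did not overlap. Shares of a group sum to a fixed total and are not independent, and no such count was made for groups of other genes. Each of the 12 shares had a two-sided exact permutation p of 0.1, the smallest possible, and an adjusted p of 0.183 over the 22 shares, so the design can show none of them. The largest shift was that of COPZ1 within the zeta pair, 73.8% ± 3.96 in irradiated and 91.8% ± 5.21 in control cultures (SD, n = 3 each). Dividing counts by length widened it to 28.8 points lower. ARFGAP1 held 67.9% ± 2.87 of ARFGAP counts in irradiated and 52.8% ± 7.07 in control cultures. ARF6 held 20.7% ± 1.01 and 14.0% ± 2.27 of ARF counts in irradiated and control cultures, a gap of 6.7 points that narrowed to 3.6 points once counts were divided by length. KDELR2 held 40.1% ± 0.80 of KDEL receptor counts in irradiated and 32.9% ± 4.73 in control cultures. SAR1A held 79.8% ± 2.62 of SAR1 counts in irradiated and 73.8% ± 1.93 in control cultures.

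**Figure D5:**
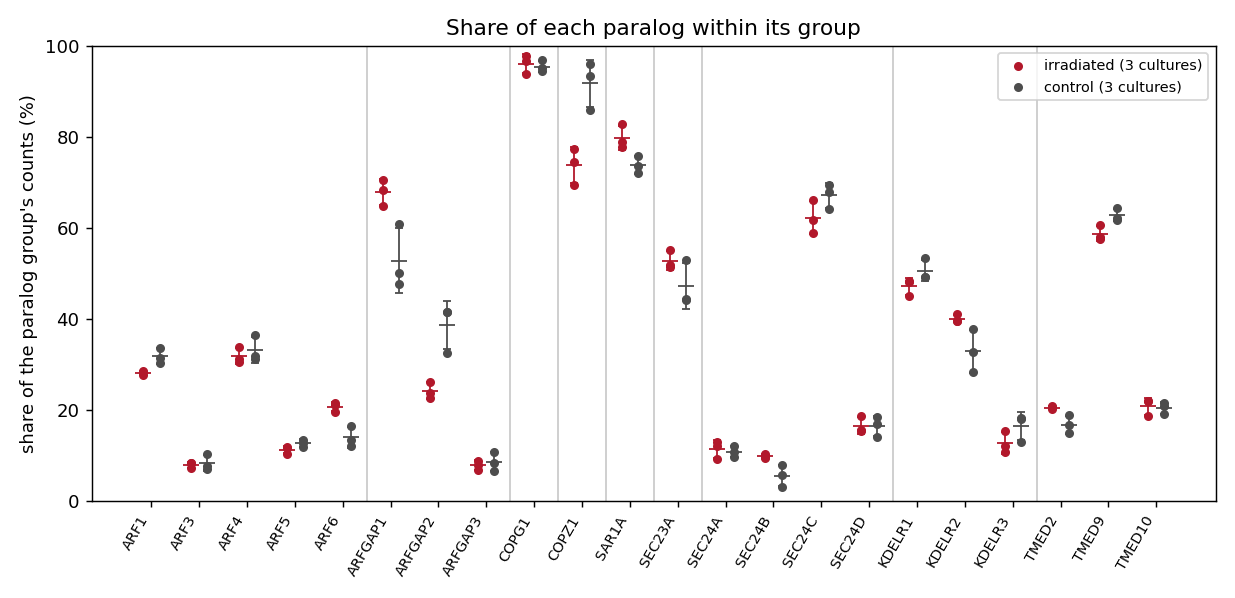
Share of each gene in the summed counts of its paralog group, in percent, with 1 point per culture, irradiated left of control, and the mean ± SD of 3 cultures; vertical lines part the 9 groups, and for pairs 1 member is drawn. COPZ1 is lower and ARFGAP1, ARF6, KDELR2 and SAR1A are higher in all 3 irradiated cultures than in any control.

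At transcript level 10 of the 264 kept transcripts were higher and 7 lower, under both limits (adjusted p and a log2 change over 1), which is 3.79% and 2.65% beside 3.36% and 4.33% of all transcripts. They came from 8 genes. COPZ2 gave 5 of the higher ones, with log2 fold changes from 1.2 to 1.38, and these split the reads almost evenly at isoform fractions of up to 16.4% in irradiated cultures, so which COPZ2 isoform the reads come from is uncertain. COPE gave 3 higher transcripts, ENST00000595984 (1.04), ENST00000600528 (1.11) and ENST00000598969 (1.12), all annotated as processed transcripts without a protein. KDELR2 ENST00000490996 (1.58) and SAR1A ENST00000452767 (1.12) were the other higher ones. The main SEC13 transcript ENST00000350697 was lower, with 40.6, 61.3 and 50.1 CPM in irradiated cultures, against 110.4, 124 and 89.6 CPM in controls (log2 fold change -1.09 ± 0.16, adjusted p = 3.1e-09). The other lower ones, in COPA, COPB2, COPZ1 and SEC13, had at most 3.5 CPM in any library. Without control 3 the counts were 17 higher and 14 lower of the 264, without control 1 they were 6 and 5, without irradiated 2 they were 13 and 12. Over all transcripts the same fits called 4726 and 4914 of 74664, 1786 and 2797 of 74828, and 2663 and 4025 of 74753. Lower member transcripts numbered 3 without irradiated 1 or control 2, beside 2066 and 1727 over all transcripts.

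In isoform usage 1 of 264 transcripts gained at least 10 points and 1 lost as much, beside 0.273% and 0.137% of all transcripts. The gain was that of ARF4 described above. The loss was in COPE, the epsilon subunit that steadies alpha-COP (ENSG00000105669, chr19:18899514-18919397, minus strand). Its full-length transcript ENST00000262812 held 34.1%, 32.9% and 35.4% of COPE counts in irradiated cultures, against 58.8%, 54.4% and 44.4% in controls. This is 18.4 points lower with an adjusted p of 0.0467, which fell to 0.00404 without control 3 and missed the threshold without any 1 of the other libraries (0.117 to 0.289) and with the length offset (0.286). The short processed transcripts ENST00000595984 and ENST00000600528 held 32.6% ± 0.49 in irradiated and 19.0% ± 7.51 in control cultures. These are shares, and no COPE transcript was called lower in its own abundance. ENST00000595984 has 4 exons and ENST00000600528 has 2, against 10 in the full-length transcript. The shares depend on how the study's quantification split reads among COPE transcripts, which was not tested. Exon 7 (chr19:18903268-18903423, GENCODE 29) was skipped in 30.8% ± 1.06 of the counts that could be placed in irradiated and 20.6% ± 4.31 in control cultures (two-sided exact permutation p = 0.1). As a share of all COPE counts, the measure given for ARF4, skipping was 20.7% ± 0.65 in irradiated and 16.5% ± 1.76 in control cultures, 4.2 points apart. AC002985.1 shares COPE exon bases on the same strand.

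With the adjusted p alone 15 of 264 usage tests passed, 5.68% beside 4.52% of all, of which 11 gained and 4 lost share, in 8 genes. Among them the retained-intron transcript SEC13 ENST00000479868 held 14.8%, 12.8% and 13.1% of SEC13 counts in irradiated cultures, against 5.5%, 4.9% and 9.1% in controls (adjusted p = 0.000354), while its own CPM did not change past the threshold (log2 fold change 0.32 ± 0.18). The retained-intron transcript TMED10 ENST00000556969 held 16.2%, 9.6% and 15.3% in irradiated cultures, against 5.7%, 4.9% and 7.8% in controls (adjusted p = 0.00251). Over all kept member transcripts, protein-coding ones held 76.1% ± 0.54 of counts in irradiated and 80.6% ± 1.19 in control cultures, and retained introns 6.70% ± 0.27 and 5.68% ± 0.24 (SD, n = 3 each). Transcripts that GENCODE 29 does not hold, whose class is unknown here, took 12.1% ± 0.54 in irradiated and 9.47% ± 0.66 in control cultures. Over all genes protein-coding transcripts held 64.4% in irradiated and 66.8% in control cultures, retained introns 9.55% and 8.66%, and transcripts outside GENCODE 29 14.5% and 13.6%.

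Promoter sequence gave a property that the choice of members did not use, though the motifs were chosen with earlier results of these data known. RefSeq promoters on GRCh38.p14, 250 bases before to 50 after a start, were found for 32 of the 37 genes, 43 windows in all since some genes have several starts. They were searched on both strands for motifs of the unfolded protein response and related factors: the UPRE core TGACGTGG, bound by XBP1 and ATF6, the Golgi stress element ACGTGGC, the E-box CACGTG, and ERSE. The first 2 overlap by 6 bases, so that TGACGTGGC counts as both. The UPRE core was in at least 1 window of 9 of the 32 genes (28.1%), against 1.28% of 8679 tested genes and 0.729% of 35116 promoters. The Golgi stress element was in 14 of 32 (43.8%), against 5.86% of tested genes and 3.22% of promoters. The E-box was in 3 of 32 (9.38%), against 12.9% and 7.26%, and ERSE in 0 of 32, against 0.150% and 0.0769%.

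Of the tested members with a promoter window 7 rose, 3 fell and 20 did not pass. UPRE cores stood in 4 of the 7 that rose (COPA, SEC16A, GBF1 and SEC23A), 0 of the 3 that fell and 5 of the 20 that did not pass (ARF1, COPB1, COPB2, KDELR3 and SEC24A). Over all tested genes they stood in 2.45% of those that rose, 0.873% of those that fell and 1.17% of the rest. Of the 4 members that rose with a core, only SEC16A kept its call under all leave-one-out fits, the length offset, RLE factors and DESeq2. The calls of COPA, GBF1 and SEC23A did not hold under all of these. COPZ2, SEC13 and COPZ1, whose calls held under these fits and which have a promoter window, had no UPRE core. Library totals alone ended the calls of SEC13 and COPZ1. Golgi stress elements stood in 4 of the 7 members that rose, 1 of the 3 that fell and 9 of the 20 that did not pass, beside 5.89%, 5.56% and 5.92% over all genes. The 4 windows with a UPRE core in a gene that rose are printed, motifs in capitals (the Golgi stress element where it overlaps, and the E-box in SEC16A), because they hold the motif in the members that were called; the sequence is that of the gene's strand.
COPA promoter, chr1:160343201-160343500, minus strand: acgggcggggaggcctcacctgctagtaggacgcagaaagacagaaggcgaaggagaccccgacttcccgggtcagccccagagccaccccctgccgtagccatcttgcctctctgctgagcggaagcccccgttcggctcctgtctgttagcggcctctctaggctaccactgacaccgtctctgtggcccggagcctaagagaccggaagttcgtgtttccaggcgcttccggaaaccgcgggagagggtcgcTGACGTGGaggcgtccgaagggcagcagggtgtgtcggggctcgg
SEC16A promoter, chr9:136484691-136484990, minus strand: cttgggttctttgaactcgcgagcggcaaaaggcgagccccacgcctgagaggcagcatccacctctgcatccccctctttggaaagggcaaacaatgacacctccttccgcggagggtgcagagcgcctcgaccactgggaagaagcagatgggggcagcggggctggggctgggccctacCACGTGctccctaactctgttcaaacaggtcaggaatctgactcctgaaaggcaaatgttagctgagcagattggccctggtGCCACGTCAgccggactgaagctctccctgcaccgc
GBF1 promoter, chr10:102245282-102245581, plus strand: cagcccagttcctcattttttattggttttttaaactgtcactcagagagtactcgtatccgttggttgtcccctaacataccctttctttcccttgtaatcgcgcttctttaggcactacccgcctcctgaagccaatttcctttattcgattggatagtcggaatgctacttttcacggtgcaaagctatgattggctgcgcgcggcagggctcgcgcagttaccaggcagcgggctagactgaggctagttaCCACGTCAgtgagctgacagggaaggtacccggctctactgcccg
SEC23A promoter, chr14:39103186-39103485, minus strand: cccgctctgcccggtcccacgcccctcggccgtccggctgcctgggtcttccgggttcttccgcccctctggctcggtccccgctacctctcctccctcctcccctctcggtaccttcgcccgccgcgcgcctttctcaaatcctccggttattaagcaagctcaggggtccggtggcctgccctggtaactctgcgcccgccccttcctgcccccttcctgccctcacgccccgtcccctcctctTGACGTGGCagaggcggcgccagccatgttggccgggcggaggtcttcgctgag
The core begins 5 bases after the start in COPA and GBF1, 15 after it in SEC16A and 4 before it in SEC23A, counting the start base itself as 0. SEC16A holds it in 1 of its 3 windows and GBF1 in 1 of its 2. Among members not called, a core begins 3 bases before a start in COPB2 and 16 before it in ARF1. A match is a run of letters, not a measured binding site.

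A wider list of 67 other early secretory genes, not members, was called at shares close to those of all genes. Of the 61 tested, 7 rose (11.5%) and 8 fell (13.1%), beside 11.6% and 14.1% of all genes, and their median log2 fold change was 0.02. Those with the smallest adjusted p that rose were GOLGA2 (0.84 ± 0.16), a Golgi tethering matrix protein, YKT6 (0.64 ± 0.15), a SNARE, GOLGB1 (0.68 ± 0.17), the tether giantin, and ARFGEF2 (0.57 ± 0.16), an exchange factor for ARFs at the trans-Golgi. Those that fell were TRAPPC2L (-0.88 ± 0.15), a subunit of the TRAPP tethering complex, CNIH1 (-0.82 ± 0.18), a COPII cargo receptor, MCFD2 (-0.46 ± 0.12), the partner of LMAN1, and BNIP1 (-0.86 ± 0.25), a SNARE of the endoplasmic reticulum. Of these 8 calls 3 were lost with 1 library left out: MCFD2 without irradiated 1 (adjusted p = 0.0637), BNIP1 without irradiated 1 (0.0925) or control 2 (0.0971), and ARFGEF2 without irradiated 2 (0.0507), irradiated 3 (0.0778) or control 1 (0.0572).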

How the data were processed

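The authors sequenced cDNA in long nanopore reads after PCR, aligned it to GRCh38 with minimap2 and quantified it with Salmon, and they deposited whole-number counts per transcript and library. Versions, annotation release, strand setting and any collapsing of molecular identifiers are not stated in the sources used here. Transcript lengths, classes and coordinates came from GENCODE 29, promoters from RefSeq. Of the 264 kept member transcripts 211 were in GENCODE 29, with 89.1% of their counts, and lengths and classes rest on these.

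The filters followed the study's methods: genes with 10 counts in at least 3 libraries, transcripts with 3 counts in at least 1 library and genes with at least 2 such transcripts. ARFGAP3 and SEC24B missed the last one. Kept counts were summed per gene and tested with edgeR 4.0.16 (TMM, robust glmQLFit, glmQLFTest) in R 4.3.3 on 3 irradiated and 3 control cultures, adjusted by Benjamini-Hochberg over all features. SE is the absolute log2 fold change over the square root of F. Usage was tested with diffSpliceDGE, and isoform fractions were not divided by length. The gene-level edgeR and DESeq2 fits and the edgeR and limma usage tests were checked on simulated counts that held no length trend. The transcript abundance calls, the length offset, the replicate block and the permutation tests were not checked this way.

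All members are named. Transcripts are named if called or switched, up to the 12 with the smallest adjusted p of each kind; those named for usage with an adjusted p under 0.05 alone were chosen after their values were seen. Of the wider list, the 4 that rose and the 4 that fell with the smallest adjusted p are named. Members, lists, motifs and tests were chosen with earlier results of these data known. Alternatives were RLE factors, library totals, a length-trend offset, other filters, DESeq2 1.42.0, limma 3.58.1 diffSplice, a replicate block and leaving out each library. The skipping of ARF4 exon 2 and the length offset in usage were added after seeing the data. Figures used Python 3.11.15 and matplotlib 3.10.9.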

Additional observations from a re-analysis of the deposited data

How the results depend on the processing

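The 9 members that rose became 20 with library totals alone, 4 with the length-trend offset and 1 with an absolute log2 fold change over 1, and 3 to 7 with 1 library left out. With RLE factors or DESeq2 they became 6 (17.1%), beside 10.9% and 9.77% of all genes. On all transcript rows they were 7 of 37 without a filter (18.9% beside 5.11%) and 8 of 37 with edgeR's filterByExpr (21.6% beside 10.9%). Members that fell numbered 4 in each of these last fits. The 4 that fell became 0 with library totals and 0 with the fold limit, and 3 to 6 with 1 library left out. Of 11118 genes 3643 were called higher and 356 lower with library totals, 968 and 1303 with the length-trend offset and 1292 and 1567 as reported. ARF4 and COPB2, not called on the TMM scale, turned to 0.29 and 0.31 with library totals alone, which by construction raises all log2 fold changes. Of the 61 other early secretory genes tested, the 7 that rose became 22 and the 8 that fell 1 with library totals. They became 0 and 0 with the fold limit, and 3 to 8 and 3 to 15 with 1 library left out. Over all genes the shares called higher and lower were 32.8% and 3.20% with library totals and 4% and 1.7% with the fold limit. With 1 library left out they were 6.24% to 15.6% and 8.79% to 17.3%. The 10 higher member transcripts became 60 with library totals, 4 with DESeq2 and 47 with the adjusted p alone. With 1 library left out they numbered 6 to 17. The 7 lower became 3, 2 and 18, and 3 to 14. Over all transcripts the 2516 higher became 12545, 782 and 6393 in the same order, and 1361 to 4726 with 1 library left out. The 3242 lower became 640, 2181 and 8017, and 1727 to 4914. Transcripts tested were 74843, or 38567 with DESeq2 and 74664 to 74828 with 1 library left out. The 2 switched isoforms became 15 with the adjusted p alone, and 1 to 5 with 1 library left out. Over all 73603 usage tests 201 gained and 101 lost at least 10 points, and 3324 passed on the adjusted p alone. With 1 library left out 82 to 433 gained and 17 to 337 lost as much. The difference in ARF4 exon 2 skipping was 15.5 to 19.3 points with 1 library left out and 18.1 points with length-divided counts. Where not stated, the cause was not tested. Replicate numbers did not pair the cultures: the correlations of same-numbered deviations were -0.0008, 0.0915 and 0.0163. With the replicate block 9 members rose and 4 fell, as without it. Totals of 4870897 to 9082409 counts leave genes of few CPM, such as COPG2 and SEC24B, with few counts.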
